A study of Mus musculus with 6 samples.

Results

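Genes of the antioxidant, glutathione and aldo-keto reductase systems were compared between mouse embryonic stem (ES) cells of different Dicer genotype. Dicer is the ribonuclease that releases mature microRNAs from their hairpin precursors. The list held 43 genes, given by symbol, with no measured value in the rule that picks them, though it was drawn up with earlier results of these data known. A gene was read by an Affymetrix probe set, a group of short probes, annotated to that gene alone, and the brightest such probe set over the arrays stood for it. Of the 43 genes, 39 had such a probe set and 38 passed the filter on low values, out of 12927 genes tested in all. Prdx5, Prdx6 and Akr1b3 had none, Prdx1 was read by 5 probe sets that also name another gene, and Akr1c12 fell below the filter.

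The study hybridised total RNA from undifferentiated cultures of 2 lines, with 3 arrays for each. The D4 line is Dicer +/-, with 1 intact copy of the gene, and the 27H line, called 27H10 in the series title, is Dicer -/-; they are called heterozygous and null cells here. No treatment and no other allele is given for either line, and every array carries the same day of analysis. Nothing in the labels ties the arrays of a line to separate cultures. The p-values therefore rest on the spread between these arrays alone, and that spread may be technical. Each genotype is 1 line, so genotype and line cannot be told apart. In total RNA from a culture, fewer cells of a type and less RNA per cell cannot be told apart either.

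Aerobic cells make superoxide and hydrogen peroxide and keep them low with enzymes that pass electrons from NADPH to glutathione or to thioredoxin. The transcription factor NRF2, encoded by Nfe2l2, is held back by KEAP1 in unstressed cells and, once released, binds antioxidant response elements beside genes for glutathione synthesis, conjugation and quinone reduction. Glutathione transferases join glutathione to reactive compounds, and aldo-keto reductases use NADPH to reduce aldehydes and ketones. Pluripotent stem cells keep their oxidant levels low by these same systems.

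Values are intensities in arbitrary units on a linear scale, and differences are given as log2 of null minus heterozygous cells. A gene was called at a limma adjusted p under 0.05, Benjamini-Hochberg over all 12927 genes, together with a log2 difference of at least 1, which is a 2-fold change. Over the tested genes, which are no independent replicates, Pearson correlations were 0.967 to 0.973 between arrays of a line and 0.924 to 0.928 between lines. The brighter Dicer1 probe set read 1053 to 1124 in heterozygous and 1132 to 1256 in null arrays, with an adjusted p of 0.222, and the removed part of the gene is not named in the labels. All 10 ES cell markers examined passed the filter and 0 were called with limma, though 5 had an unadjusted and 4 an adjusted p under 0.05, with a summed intensity of 107491 to 112104 in heterozygous and 101119 to 106714 in null arrays. Markers of primitive endoderm summed to 958 to 1454 and 425 to 445, those of trophectoderm to 10174 to 11028 and 4943 to 5037, and those of fibroblast feeder cells to 537 to 570 and 628 to 671. Of these lists, 7 of 9, 6 of 7 and 7 of 11 markers passed the filter, 2, 2 and 1 were called lower, 0, 0 and 1 were called higher, and 1 of each was under 32 in every array. The feeder sum rose mainly through Dcn (mean 31 in heterozygous, 263 in null arrays). Pdgfrb (56.6, 77.5) and Lum (18.5, 30.9) had higher means with overlapping arrays. Pdgfrb read 52.2, 60.4 and 120 in null arrays, and Lum was below the filter. Col1a1 (70, 6.62), Col1a2 (63.7, 36.9), Col3a1 (47.2, 25.7) and Thy1 (171, 119) had lower means. Of these, Col1a2 and Col3a1 did not pass the limma adjusted p (0.10 and 0.17). Krt8 (4700, 2705) and Krt18 (5244, 1896) made up most of the trophectoderm sum, and Dab2 (683, 155) was the brightest primitive endoderm marker. The part of other cell types in the differences below was not tested.

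Null cells had more transcript of several enzymes of this system and less of a few others. Of the 38 genes tested, 8 rose past both limits (Nqo1, Cat, Gstm2, Gss, Gstp1, Txnrd2, Gpx7 and Akr1c13) and 3 fell past them (Gpx3, Mgst1 and Gstt2). The share called was 28.9% of the list against 13.4% of all genes tested, with 21.1% higher against 7.23% and 7.89% lower against 6.2%. At the adjusted p alone, 21 were higher and 5 lower, 68.4% of the list against 48.8% of all genes (24.5% higher and 24.3% lower). Heterozygous and null arrays were fully separate for 27 of the 38, or 71.1%, against 57.2% of all genes. The median difference of the list was 0.22, and that of all genes tested -0.01. Akr1c13 passed the filter through the null arrays alone; without it, and without the 242 genes of all that were under 32 in every array of one line, 7 of 37 rose and 3 fell, 27% against 12.6%. These shares and medians describe a list chosen with earlier results known and are no test of it.

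**Figure D1:**
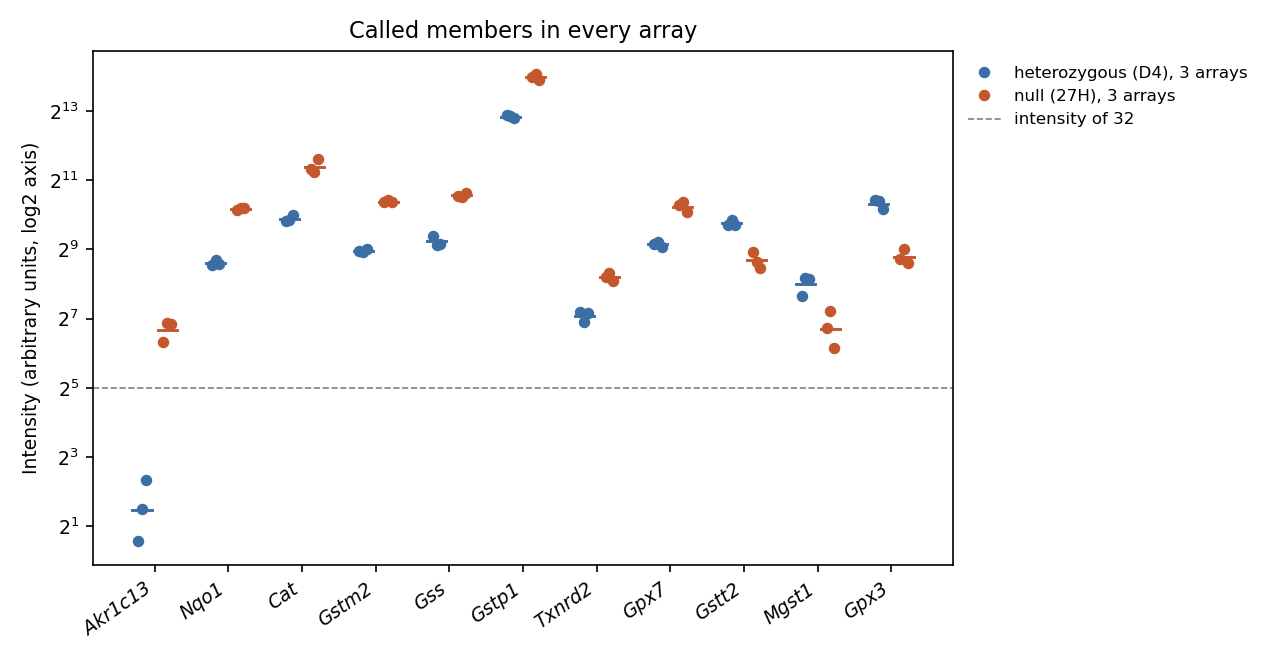
Intensity (log2 axis, arbitrary units) of the 11 called genes in each of the 3 heterozygous (blue) and 3 null (orange) arrays, with a bar at the mean of the log2 values and a dashed line at 32. No gene has overlapping arrays between lines; Akr1c13 is the only one below 32 in heterozygous cells, and Gstt2, Mgst1 and Gpx3 are the 3 that are lower in null cells.

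Both genes of the sensor pair were higher in null cells by less than 2-fold. Nfe2l2 read 2472, 2526 and 2777 in heterozygous arrays and 3623, 3870 and 4224 in null arrays, a log2 difference of 0.59 ± 0.08 (SE, n = 3) with a limma adjusted p of 7.83e-05. Keap1, whose product marks NRF2 for destruction, read 327, 301 and 358 against 473, 526 and 539, a difference of 0.64 ± 0.11 with an adjusted p of 0.000684. All 3 null arrays lay above all heterozygous arrays for each gene. The factor and its inhibitor were therefore both 1.5-fold to 1.6-fold higher at the transcript level. A dimmer Keap1 probe set, 1450747_at, differed by 0.36, with an adjusted p over all probe sets of 0.075.

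The core of the antioxidant response element, TGACNNNGC on either strand, was looked for in RefSeq promoter windows of 300 bases (250 before to 50 after a transcript start, build GRCm38.p6). Windows were on file for 36 of the 43 genes, and 9 of these, 25%, held the core, against 14.0% of the 27025 genes with a window and 12.4% of all 32851 windows. All 8 genes called higher had a window, and 0 of them held these letters there; a match further away was not searched. Of the genes called lower, Mgst1 did. The tested genes with a match before the start are shown because they join the element to the values in this report, with the core in capitals, read 5′ to 3′ on the strand of the gene. In Nfe2l2, Gsta3 and Gstm5 the core reads as written, and in the other 4 it stands on the opposite strand.
Nfe2l2 (chr2:75704875-75704913, minus strand): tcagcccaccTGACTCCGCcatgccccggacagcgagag
Gclm (chr3:122245403-122245451, plus strand): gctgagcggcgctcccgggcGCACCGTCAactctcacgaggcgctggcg
Gsta3 (chr1:21240444-21240492, plus strand): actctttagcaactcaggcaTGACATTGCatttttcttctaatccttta
Gstm5 (chr3:107895792-107895840, plus strand): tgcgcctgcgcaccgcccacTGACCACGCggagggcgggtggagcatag
Mgst1 (chr6:138140451-138140499, plus strand): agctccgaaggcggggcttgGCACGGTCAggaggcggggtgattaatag
Txnrd1 (chr10:82859094-82859142, plus strand): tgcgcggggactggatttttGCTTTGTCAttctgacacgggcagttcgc
Sod1 (chr16:90220686-90220734, plus strand): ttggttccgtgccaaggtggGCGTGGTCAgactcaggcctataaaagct
The cores began 240, 134, 121, 42, 56, 92 and 56 bases before the start, in the order shown. The log2 differences of these genes were, in the same order, 0.59, 0.23, 0.67, -0.05, -1.30, -0.05 and 0.20. Past the adjusted p, Nfe2l2, Gclm, Gsta3 and Sod1 were higher and Mgst1 was lower. Gstm5 and Txnrd1 did not pass it. The adjusted p was passed by 68.4% of the whole list, 21 higher and 5 lower, and by 48.8% of all genes. A link between the element and the differences was not tested. Srxn1, at 0.83 and past the adjusted p, had a core within the 50 bases after its start, and Prdx1, which had no probe set of its own, had one before it.

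The pair of inducible enzymes on the list, both common readouts of NRF2, parted. Nqo1, a quinone reductase, rose in null cells: it read 377, 412 and 384 in heterozygous arrays and 1129, 1181 and 1166 in null arrays. This was 2.96-fold higher, a log2 difference of 1.57 ± 0.09 (SE, n = 3) with a limma adjusted p of 1.47e-07. Hmox1, the heme oxygenase that breaks heme down to biliverdin, read 1485, 1522 and 1455 against 1522, 1635 and 1345. Its arrays overlapped, and the difference was 0.01 with a 95% interval of -0.18 to 0.20, below 0 with quantile normalization (-0.0057) and, down to -0.056, without heterozygous replicate 3, null replicate 1 or null replicate 2.

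Glutathione is built by glutamate-cysteine ligase, with its catalytic subunit Gclc and its modifier subunit Gclm, and then by glutathione synthetase, Gss; Gsr reduces the oxidised form. Of these, Gss rose, from 676, 565 and 572 in heterozygous arrays to 1483, 1466 and 1590 in null arrays, 2.51-fold higher with a limma adjusted p of 7.29e-07. Its other probe set, 1441931_x_at, differed by 1.20. The enzyme of the last step was thus higher on both probe sets. Gsr read 1505, 1612 and 1348 against 2628, 2450 and 2057, a log2 difference of 0.67 ± 0.10 (SE, n = 3), short of the 2-fold limit with an adjusted p of 0.000215. Its arrays did not overlap. Gclc, the catalytic subunit of the first and rate-limiting step, read 1292, 1343 and 1267 against 1364, 1200 and 1257, a difference of -0.03 (95% interval -0.21 to 0.14) that was 0.12 with arrays centred on their medians. The dimmer Gclc probe set, 1455959_s_at, differed by 0.19, with a limma adjusted p over all probe sets of 0.111. Gclm read 3844, 3477 and 3447 against 4414, 4309 and 3901, a difference of 0.23, while its dimmer probe set 1439050_at differed by 0.90, with an adjusted p over all probe sets of 0.000193. The Gclm probe sets therefore gave the same direction and unlike sizes.

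Glutathione peroxidases reduce peroxides with glutathione, and the 4 on the list differed in both directions. Gpx3, the secreted peroxidase found in plasma, fell: it read 1368, 1338 and 1150 in heterozygous arrays and 421, 515 and 391 in null arrays, 2.92-fold lower (limma adjusted p 1.34e-06). Gpx3 lies on chromosome 11, where the median over 1097 tested genes was 0.29. The part of this shift in the Gpx3 value was not tested. Gpx7, a peroxidase of the endoplasmic reticulum, rose from 568, 595 and 537 to 1241, 1322 and 1077, 2.14-fold higher with an adjusted p of 4.5e-06. The lines did not overlap for either gene. Gpx4, which reduces lipid peroxides in membranes and protects cells from ferroptosis, read 12754, 12841 and 11529 against 16922, 17118 and 14519, a difference of 0.39 ± 0.08 (SE, n = 3) with an adjusted p of 0.0014. Gpx1, the abundant peroxidase of the cytosol, read 17112, 15563 and 15662 against 17182, 19173 and 16524, with overlapping arrays and an adjusted p of 0.154.

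Of 9 soluble glutathione transferases, 2 were called higher and 1 lower, 33.3% against 13.4% of all genes. The adjusted p alone was passed by 6 that were higher and 1 that was lower, 77.8% against 48.8% of all genes. Gstm2, a transferase of the mu class, rose from 499, 487 and 517 in heterozygous arrays to 1314, 1376 and 1317 in null arrays, 2.67-fold higher with a limma adjusted p of 1.78e-07. Gstp1, the pi-class enzyme, rose from 7503, 7391 and 7065 to 16187, 17126 and 15290, 2.21-fold higher with an adjusted p of 1.17e-07. The arrays of a line lay close together for both genes and far from those of the other line. The near-identical Gstp2 had no probe set of its own, so its share in the Gstp1 signal was not tested. Gstt2, of the theta class, fell from 841, 917 and 839 to 489, 401 and 354, 2.10-fold lower (adjusted p 2.61e-05). Gstt2 was just past the 2-fold limit: its log2 difference was -1.07, or -0.97 without null replicate 3 and -0.92 with arrays centred on their medians, short of the limit in both.

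Neighbouring transferase genes of the list gave differences of unlike size or sign. On chromosome 3, where the mu-class genes form a cluster, Gstm2 differed by 1.42 (95% interval 1.24 to 1.59), Gstm1 by 0.39 (0.15 to 0.63) and Gstm5 by -0.05 (-0.26 to 0.16). The interval of Gstm2 overlapped neither of the others, though the difference between genes was not tested and mu-class transcripts are alike in sequence. Centring arrays on their medians brought Gstm5 to 0.10. Gstm1 read 1482, 1468 and 1231 in heterozygous and 1915, 2027 and 1553 in null arrays on a probe set named _x_at, the mark of probes that may bind other transcripts, while 1448330_at differed by 0.32. The dim Gstm1 probe sets 1425627_x_at and 1425626_at differed by -0.04 and 0.61 and did not pass the adjusted p over all probe sets. On chromosome 10, Gstt1 and Gstt2 lie close together. Gstt1 read 243, 274 and 238 against 338, 320 and 371, a log2 difference of 0.45 ± 0.13 (SE, n = 3), opposite in sign to Gstt2.

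Of the other soluble transferases, Gsta3 and Gsto1 were higher by less than 2-fold and Gsta4 did not pass the test. Gsta3, of the alpha class, read 272, 288 and 292 in heterozygous arrays and 451, 487 and 420 in null arrays, a log2 difference of 0.67 ± 0.11 (SE, n = 3). It lies on chromosome 1, where the median over 726 tested genes was 0.31; the part of this shift in the value was not tested. Gsto1, an omega-class enzyme that also reduces dehydroascorbate, read 2226, 2311 and 2194 against 3543, 3240 and 3002, a difference of 0.54 ± 0.08. Neither gene had overlapping arrays. Gsta4, which conjugates the lipid aldehyde 4-hydroxynonenal, read 14956 to 15312 in heterozygous and 14714 to 16894 in null arrays, with overlapping arrays and an adjusted p of 0.275.

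Of 3 membrane-bound transferases, 1 was called (33.3% against 13.4% of all genes), with the widest spread of the 3 called decreases. Mgst1, a glutathione transferase and peroxidase of microsomes and mitochondria, fell from 202, 291 and 283 in heterozygous arrays to 106, 148 and 70.9 in null arrays, a log2 difference of -1.30 ± 0.26 (SE, n = 3) with a limma adjusted p of 0.00165. Its lines did not overlap, and the difference lay between -1.56 and -1.03 when arrays were left out. Mgst2, which can make leukotriene C4, read 44.3, 50.1 and 55.3 against 13, 38.3 and 31.9, close to the filter of 32, with an adjusted p of 0.17. Mgst3 read 514, 675 and 631 against 672, 636 and 545, with overlapping arrays and a difference of 0.03, of either sign across the alternatives.

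**Figure D2:**
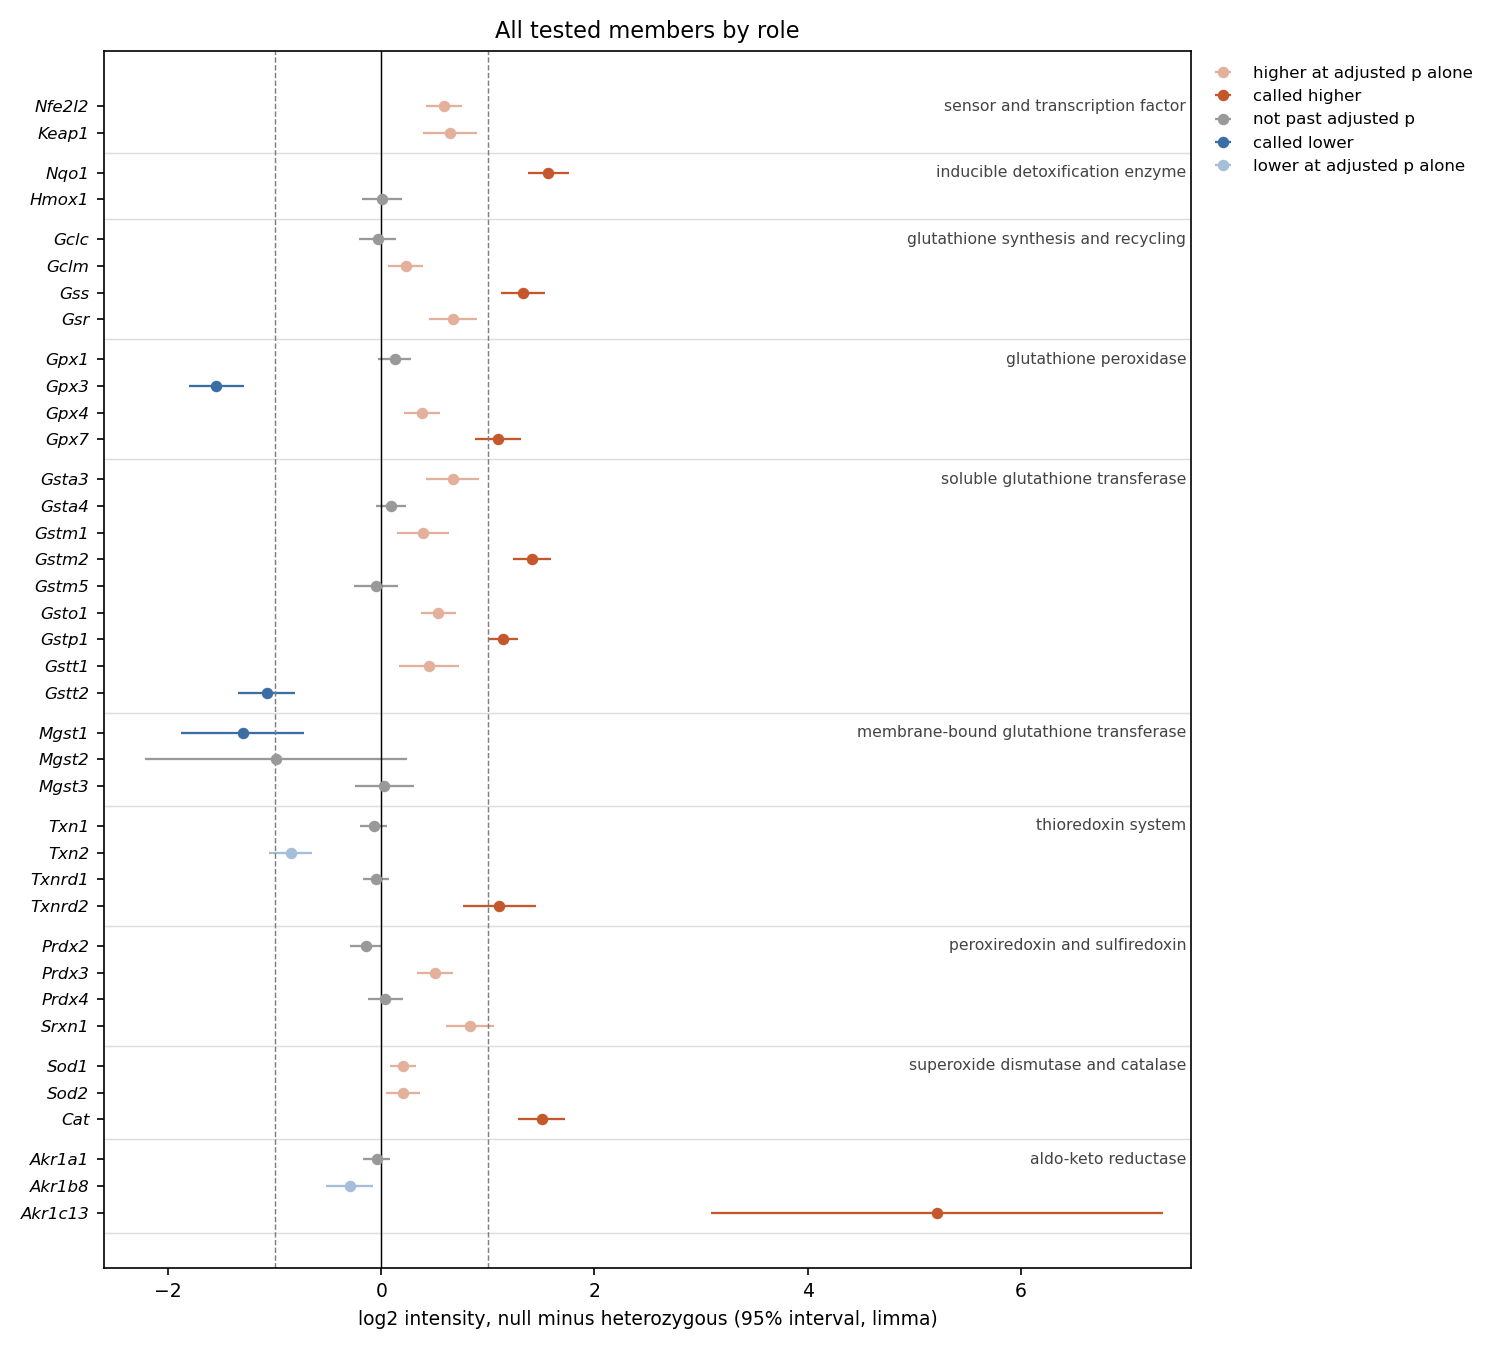
Log2 difference between null and heterozygous cells for the 38 tested genes, grouped by role, with the 95% interval of the limma fit; dashed lines mark a 2-fold change in either direction and colours give the call. Gains past the limit are spread over 7 of the 10 roles, and Akr1c13 has the widest interval, 3.09 to 7.33.

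Thioredoxin reduces protein disulfides and is itself reduced by thioredoxin reductase; Txn1 and Txnrd1 act in the cytosol, Txn2 and Txnrd2 in mitochondria. The cytosolic pair did not pass the test on the probe sets that stand for them. Txn1 read 18794, 18700 and 19495 in heterozygous arrays and 18574, 18502 and 17184 in null arrays (adjusted p 0.332), and Txnrd1 read 7193, 7159 and 7119 against 6751, 6914 and 7125 (adjusted p 0.526). Their 95% intervals, -0.20 to 0.05 and -0.17 to 0.08, held no change as large as those of the mitochondrial pair. A dimmer Txnrd1 probe set, 1424486_a_at, differed by -0.34, with an adjusted p over all probe sets of 0.0236. The signs of both cytosolic genes turned with arrays centred on their medians, to 0.083 and 0.11.

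The mitochondrial genes lay on opposite sides of 0. Txnrd2 rose from 148, 120 and 143 in heterozygous arrays to 292, 318 and 273 in null arrays, 2.15-fold higher with a limma adjusted p of 0.000126. Txn2 read 1710, 2083 and 2017 against 1143, 1063 and 1008, a log2 difference of -0.85 ± 0.09 (SE, n = 3) that was short of the 2-fold limit, with an adjusted p of 1.88e-05. Neither had overlapping arrays. The other Txn2 probe sets differed by -0.61 and -0.69. The other Txnrd2 probe sets differed by 0.60, 0.60 and -0.21, and their mean with the brightest, 0.53, was not called, so the size of the Txnrd2 increase rests on 1449097_at.

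Peroxiredoxins remove hydrogen peroxide with electrons from thioredoxin, and sulfiredoxin, Srxn1, repairs those that peroxide has over-oxidised. Of the 4 genes tested in this role, 0 were called with limma, 2 were higher at the adjusted p alone and 3 had an unadjusted p under 0.05. The 2 past the adjusted p are 50% of the 4, against 48.8% of all genes, and 13.4% of all genes were called. Srxn1, an NRF2 target, read 446, 475 and 443 in heterozygous arrays and 861, 722 and 850 in null arrays, a log2 difference of 0.83 ± 0.10 (SE, n = 3) with a limma adjusted p of 4.62e-05. Its other probe sets above the filter differed by 0.95, 0.98 and 0.997, so all 4 lay under the 2-fold limit. The last, 1419942_at, was dim, at 9.24 to 44.9 units in heterozygous and 43.1 to 69.0 in null arrays. Its arrays overlapped, with a limma adjusted p over all probe sets of 0.258. Prdx3, the mitochondrial peroxiredoxin, read 1930, 2001 and 1866 against 2907, 2827 and 2510, a difference of 0.51 ± 0.08 with no overlap. Prdx2, in the cytosol, read 10154, 10850 and 11490 against 9373, 10269 and 9702, a difference of -0.15 (adjusted p 0.0883) that was 0.0080 with arrays centred on their medians. Prdx4, in the endoplasmic reticulum, read 3851, 3843 and 3480 against 4121, 3757 and 3593, with an adjusted p of 0.712. The arrays of both overlapped.

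Superoxide dismutases turn superoxide into hydrogen peroxide, which catalase breaks down in peroxisomes. Cat rose from 908, 917 and 1015 in heterozygous arrays to 2577, 2392 and 3131 in null arrays, 2.84-fold higher with a log2 difference of 1.5 ± 0.10 (SE, n = 3) and a limma adjusted p of 5.49e-07. Its other probe set, 1416429_a_at, differed by 1.73. The increase of catalase was past the limit on both probe sets. Sod1, the cytosolic dismutase, read 13415, 12696 and 13460 against 14807, 15454 and 15274, a difference of 0.20 with an adjusted p of 0.0106. Sod2, of the mitochondrial matrix, read 9600, 8679 and 8590 against 10581, 10873 and 9530, a difference of 0.21 with overlapping arrays. The direction of Sod2 depended on the probe set, and Sod1 was lower only on dim ones. The other bright Sod1 probe set, 1451124_at, differed by 0.31, with an adjusted p over all probe sets of 0.0012, in the direction of the one that stands for the gene. As means over probe sets Sod1 and Sod2 were at -0.32 and -0.018. The dim 1440222_at of Sod1, at 27.7 to 100.1 units, differed by -1.18 and 1454976_at of Sod2 by -0.65. Their limma adjusted p values over all probe sets were 0.0254 and 0.0011. The Sod1 mean also took in 1447761_x_at, under the filter at 1.60 to 24.8 units.

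**Figure D3:**
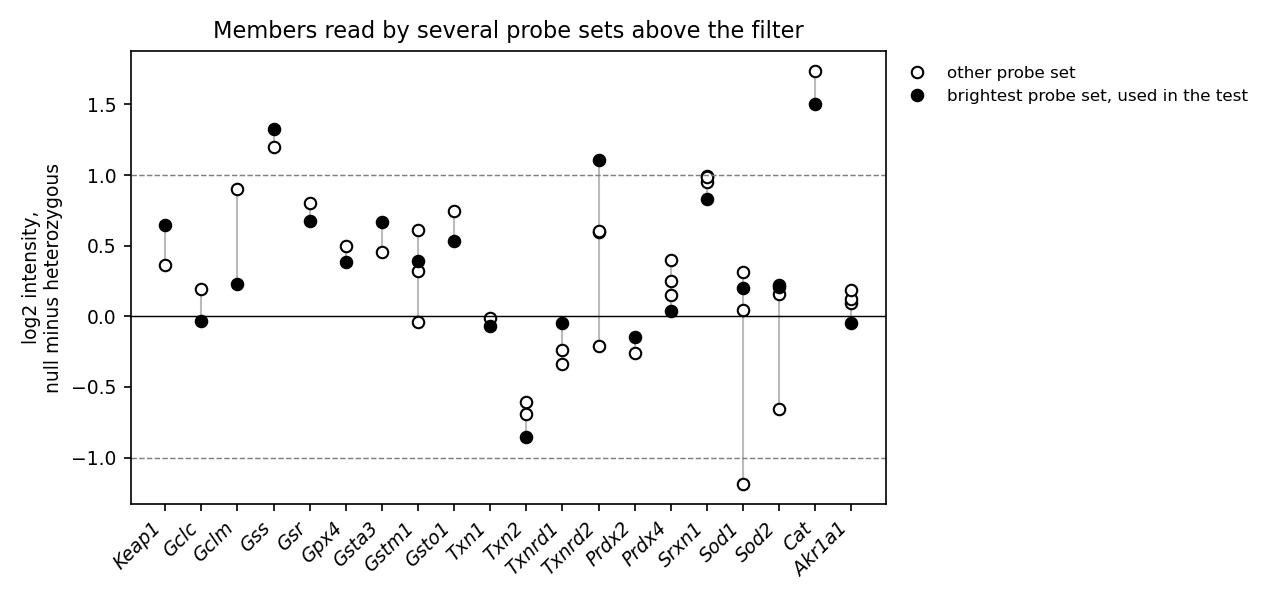
Log2 difference of each probe set for the genes read by several probe sets above the filter; filled points are the brightest probe set, which stands for the gene, open points the others, and dashed lines a 2-fold change. Gss, Cat, Txn2 and Srxn1 have probe sets that lie together, while those of Sod1 (-1.18 to 0.31), Sod2 and Txnrd2 (-0.21 to 1.11) spread across 0. Those of Gclc (-0.03 to 0.19), Gstm1 (-0.04 to 0.61) and Akr1a1 (-0.04 to 0.19) also lie on both sides of 0.

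Among the aldo-keto reductases, Akr1c13, of a subfamily that reduces carbonyl groups of steroids and other compounds, was called on values that are near background in one line. It read 1.49, 2.82 and 5.12 in heterozygous arrays, far under the filter of 32, which it passed through the null arrays alone, and 80.4, 118 and 116 in null arrays, a fitted difference of 5.21 ± 0.96 (SE, n = 3) that rests on those dim values. With values under 32 raised to 32 the fold was 3.22. All 3 heterozygous arrays were then set to 32, so this fold depends on the chosen floor. The size of the increase was therefore not settled. Its near-identical neighbour on chromosome 13, Akr1c12, read 9.64, 9.92 and 22.3 against 34.5, 30.3 and 19.8. Akr1c12 thus stayed near or under 32 in both lines, and it was not tested. Akr1b8 read 755, 933 and 910 against 693, 674 and 741, a difference of -0.30 ± 0.10 with an adjusted p of 0.0313. Akr1a1, a broad aldehyde reductase, read 23404, 22044 and 22802 against 20766, 22663 and 22817, with overlapping arrays. Its difference was -0.04, or 0.11 with arrays centred on their medians, and its other probe sets differed by 0.10, 0.13 and 0.19, the last, 1451035_a_at, with an adjusted p over all probe sets of 0.0216, so its sign was not settled.

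Related genes outside the list were taken from a separate list of 79, of which 59 were tested. Of these, 9 rose and 4 fell past both limits, 22.0% against 13.4% of all genes. The adjusted p alone was passed by 26 that were higher and 12 that were lower, 64.4% against 48.8% of all genes. The median of the 59 was 0.27. Among 28 tested family relatives, 2 were called higher and 1 lower, 10.7% against 13.4% of all genes. Gpx2, the gastrointestinal glutathione peroxidase and an NRF2 target, rose from 133, 212 and 175 in heterozygous arrays to 1204, 1148 and 1117 in null arrays, 6.78-fold higher with a limma adjusted p of 1.39e-07. This was a larger fold than that of any listed gene with all arrays above 32. Txnrd3, a thioredoxin and glutathione reductase, rose 2.59-fold, and Glrx, a glutaredoxin that removes glutathione from proteins, fell 2.07-fold, to -0.98 on the log2 scale without heterozygous replicate 2, -0.97 without null replicate 3 and -0.89 with arrays centred on their medians, short of the limit.

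Of 10 tested enzymes of NADPH supply and the pentose phosphate pathway, Pgls, Tkt and Taldo1 among them, 1 was called, 10% against 13.4% of all genes. At the adjusted p alone 7 were higher and 2 lower, where 24.5% of all genes were higher and 24.3% lower. Me1, the cytosolic malic enzyme, rose 2.73-fold from 784 ± 57.9 to 2135 ± 53.0 (SD, n = 3). Genes outside the naming rule, picked after their values were seen, were Nnt, the mitochondrial transhydrogenase (0.89), Idh2, the mitochondrial NADP-linked isocitrate dehydrogenase (0.89), and Pgd of the pentose phosphate pathway (0.73). These 3 were past the adjusted p and under the limit of size. The 2 that were lower at the adjusted p were Mthfd2 (-0.30) and Taldo1 (-0.20).

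Of 21 tested genes of the NRF2 network and its targets, 6 were called higher and 3 lower. These were 28.6% and 14.3%, against 7.23% and 6.2% of all genes. The set also holds relatives of NRF2, such as Nfe2, and repressors, such as Bach2. Nfe2 passed the filter through the null arrays alone, and without it 5 of 20 were called higher. Ugdh, which makes UDP-glucuronate for conjugation, rose from 689 ± 31.1 to 2527 ± 91.5 (SD, n = 3), 3.67-fold higher with a limma adjusted p of 1.83e-08. The biliverdin reductases Blvrb and Blvra rose 2.92-fold and 2.05-fold, the carbonyl reductase Cbr3 2.60-fold and the epoxide hydrolase Ephx1 2.46-fold. Ephx1 lies on chromosome 1, and Blvra was at 0.97 without heterozygous replicate 3. These called enzymes differed in the same direction as Nqo1, but the set as a whole went both ways. At the adjusted p alone 11 of the 21 were higher and 5 lower, 76.2% against 48.8% of all genes. Cbr1, another carbonyl reductase, was at -0.63 (limma adjusted p 0.00259) and Slc3a2 at -0.26 (adjusted p 0.0119), both named after their values were seen. Nqo2 and Aldh3a1 did not pass the test, and Slc7a11 was below the filter. Nfe2, a relative of NRF2 from blood cells, read 5.56, 16.4 and 10.7 against 72.3, 38.6 and 76.2, and was no longer called with values under 32 raised to 32 (0.90) or without null replicate 1 or 3 (adjusted p 0.0652 and 0.0745). Maff, a small MAF partner of NRF2, fell from 178 ± 22.3 to 66.5 ± 28.3, and Bach2, a repressor that binds related elements, from 92.1 ± 10.05 to 40.2 ± 17.7. The Bach2 call was lost without heterozygous replicate 2 (-1.22, adjusted p 0.067) or 3 (-1.25, adjusted p 0.0568), without null replicate 3 (-0.95), on the log2(value + 16) scale (-0.99) and as a mean over probe sets (-0.34). Abcc1, an exporter of glutathione conjugates that is outside the naming rule, was at -1.01, and at -0.98 without heterozygous replicate 1 or 2, -0.85 with arrays centred on their medians, -0.89 as a mean over probe sets and -0.99 on the log2(value + 16) scale, short of the limit in each. Sqstm1 (p62), picked after its value was seen, read 4237, 4654 and 4361 against 9515, 8942 and 8027, a difference of 0.996, just under the limit; it lies on chromosome 11, with its median of 0.29, and the part of that shift was not tested.

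**Figure D4:**
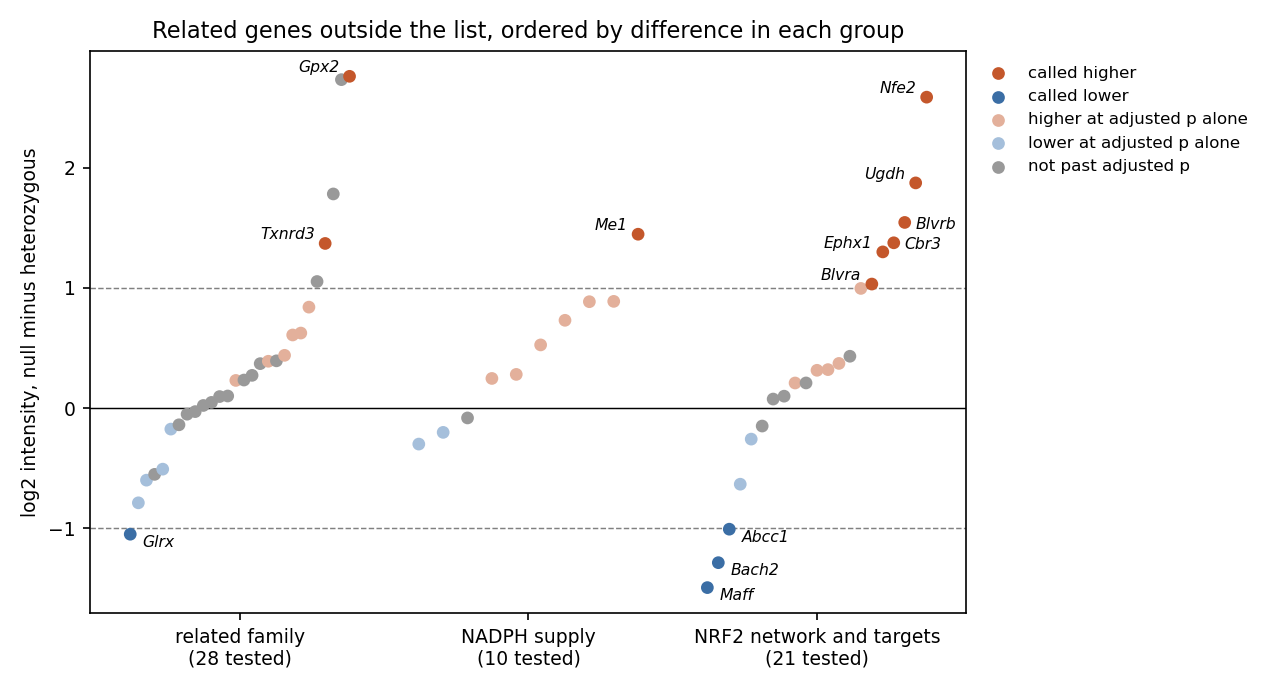
Log2 difference of the 59 tested related genes, ordered within 3 groups, coloured by call, with called genes named; dashed lines mark a 2-fold change. Called increases reach from Blvra at 1.03 to Gpx2 at 2.76, and called decreases are Glrx, Abcc1, Bach2 and Maff.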

How the data were processed

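Per the values themselves, the deposited intensities are linear, with 1 for each of 45101 probe sets. The authors' scaling gave every array a mean of 500 after trimming 2% at each end; the step is not given in the sources used here. GCRMA is named in the submitters' processing notes, with no role. Of the probe sets, 34945 carried 1 gene symbol, 932 several and 9160 none, and 64 controls were left out. The filter kept probe sets whose log2 intensity was 5 or more (32 units) on at least 3 of 6 arrays. Log2 values were fitted with limma 3.58.1 in R 4.3.3 (lmFit, eBayes with an intensity trend, two-sided, group as the only term), after a test on simulated data. The related and marker lists and the naming rule (called genes, the regulators, up to 3 more per role, up to 12 related genes) were chosen with earlier results of these data known, as were the members. Alternatives were other filters, floors, scalings, variance priors, probe set rules, array weights, a replicate block and leaving out each array, with the filter and probe set of all 6 arrays unless these were the choice changed. The number of arrays limits the precision. Chromosomes come from the gene table of GRCm38.p6.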

Additional observations from a re-analysis of the deposited data

How the results depend on the processing

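Over 674 fits of single list members under the alternatives, 649 kept direction and side of the threshold, 3 lost the call and 22 changed sign; 0 called members changed sign. The lost calls were Gstt2 without null replicate 3 and with arrays centred on their medians, and Txnrd2 as a mean over probe sets. The number of list members called was 9 to 11 under all alternatives except the one without a limit on size, which gave 26 of the list, 38 related genes and 6305 of all genes. Akr1c13 dropped below the log2 filter of 7.

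Centring arrays on their medians moved the median of all tested genes from -0.01 to 0.14 and that of the list from 0.22 to 0.37, the same step, and the calls over all genes from 934 higher and 802 lower to 1263 and 575. It turned the signs of Gclc (0.12), Gstm5 (0.10), Txn1 (0.083), Txnrd1 (0.11), Prdx2 (0.0080) and Akr1a1 (0.11). Quantile normalization turned those of Hmox1 (-0.0057) and Mgst3 (-0.0034). With means over probe sets the list's median was 0.32, Mgst1 fell below the filter, and Gclc (0.081), Mgst3 (-0.060), Sod1 (-0.32), Sod2 (-0.018) and Akr1a1 (0.091) changed sign; without probe sets that share sequence the median was 0.32 over 31 genes, and Gstp1 and Mgst1 could not be tested. Leaving out each array in turn gave -0.056 to 0.085 for Hmox1, -0.083 to 0.0099 for Gclc, -0.093 to 0.013 for Gstm5, -0.085 to 0.12 for Mgst3, -0.018 to 0.081 for Prdx4 and -1.61 to -0.95 for Bach2. In an alternative chosen after seeing the data, the filter and the probe set were chosen again from the remaining 5 arrays: 9 to 11 list members were called, and Akr1c13 fell below the filter without any one null array. Bach2 was then at 0.32, 0.47 and -0.03 without heterozygous replicates 1, 2 and 3, where another of its probe sets became the brightest. The values of Hmox1 (-0.0072 without heterozygous replicate 3, -0.0041 and -0.056 without null replicates 1 and 2), Prdx4 (-0.011 and -0.018 without heterozygous replicate 3 and null replicate 1), Mgst3 (-0.085 and -0.033 without heterozygous and null replicate 1), Gclc and Gstm5 were the same either way.

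With the replicate number as a block, 11 list members, 15 related genes and 1746 of all genes were called. Deviations of arrays with the same number correlated by 0.03, 0.03 and 0.08, under the 0.1 asked for pairing; each array correlated best with its own number, a hint from the data and not the design. No detection calls were used, so values near 32 may be background, which limits Akr1c13, Mgst2 and Nfe2.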
